A study of Mus musculus with 12 samples.

Results

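The effect of cinnabarinic acid on the liver transcriptome was taken as the difference between 2 groups fed a diet that brings about metabolic dysfunction-associated steatohepatitis (MASH). One group received the compound (MD+CA, 4 libraries) and the other received vehicle (MD, 4 libraries), which makes 8 of the 12 liver libraries of the series. All mice carried floxed alleles of the aryl hydrocarbon receptor gene (AhR), and no Cre driver is named in the labels, so the alleles are described here only as floxed. The MASH diet supplied 40% of energy from fat and 20% from fructose and held 2% cholesterol. It was started at 8 weeks of age and given for 20 weeks. MD+CA mice were injected into the peritoneum 3 times a week throughout, with 12 mg/kg of the compound in 0.2% DMSO, and MD mice with 0.2% DMSO in saline on the same schedule. The remaining 4 libraries came from mice on a control diet (CD, 10% of energy from fat), for which no injection is stated, and they entered the model to estimate the spread. The labels do not say that the libraries of a group came from separate mice, so the p-values may reflect technical spread alone. The hour of tissue collection is not given either, and a difference in that hour cannot be told apart from the compound.

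Cinnabarinic acid forms by oxidative coupling of 3-hydroxyanthranilic acid, an intermediate of the kynurenine pathway through which the liver degrades most tryptophan. It is a ligand of AhR, a cytosolic receptor held by chaperones that moves to the nucleus on ligand binding, pairs with Arnt and binds xenobiotic response elements. Cyp1a1 is its classical target, and Stc2, a secreted glycoprotein of the stress response, is known as a target that responds to cinnabarinic acid. The liver also runs a strong circadian program. Bmal1 with Clock or Npas2 binds E-boxes and switches on the PER, CRY and REV-ERB repressors and the PAR bZIP factors Dbp, Tef and Hlf, which act through D-boxes, while REV-ERB proteins repress Bmal1.

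The 8 libraries held between 9089586 and 14492587 reads assigned to transcripts, and the 4 CD libraries between 11080762 and 13930275. Genes with at least 1 read numbered 18505 ± 726 in MD+CA and 19655 ± 333 in MD (SD, n = 4; exact permutation test, two-sided, p = 0.02857, the smallest that 70 assignments allow, adjusted p = 0.143 over 5 library measures). Mitochondrially encoded genes took between 4.97 and 7.94% of reads in MD+CA and between 6.16 and 17.5% in MD (exact permutation p = 0.0857, adjusted p = 0.214). MD replicate 2 had the highest mitochondrial share, and with MD+CA replicate 3 it lay farthest out on the first 2 principal components, which held 31.8 and 15.99% of the variance. Defining hepatocyte genes were high throughout, with Alb, serum albumin, at 16609.5 to 37579 CPM in MD and 26975 to 45525 CPM in MD+CA (CPM, counts scaled to a common library size and corrected for library composition). The labels give male animals, but Xist, the RNA of the inactive X chromosome, stood at 619 to 947 CPM in all 12 libraries, and 4 genes of the Y chromosome had 0 reads in each. With 0 reads a level of up to between 0.207 and 0.330 CPM is allowed, by counting error only. Markers of other tissues appeared in single libraries. Myh4, a myosin of skeletal muscle, had 297 reads in MD+CA replicate 2 and 0 to 12 in the 7 others, and Adipoq, an adipocyte hormone, had 82 reads in MD+CA replicate 4 and 0 to 20 in the 7 others.

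Livers of mice given cinnabarinic acid differed from those given vehicle in a small share of genes, more of them lower than higher. Among the genes that fell were some of the clock's repressors and outputs, some immediate early genes and several genes of fat metabolism. Of the glycogen genes 2 fell and 1 rose. Among the genes that rose were Bmal1, some macrophage genes, interferon-induced GTPases and chaperones of the endoplasmic reticulum, and 3 complement components. Of 13631 genes tested 369 changed (2.71%) with edgeR's quasi-likelihood test at a Benjamini-Hochberg adjusted p under 0.05, 145 higher (1.06%) and 224 lower (1.64%). The gene lists described below, chosen with earlier results of these data known, held 87 of these genes (23.6%). The other 282 lay outside every list, so the lists do not describe the whole response. An unadjusted p under 0.05 was reached by 3157 genes (23.2%), and the 4 values of one group lay wholly above those of the other for 1390 genes (10.2%). Among the called genes this held for 134 of the 145 higher and 210 of the 224 lower. A lack of overlap therefore adds little to a call. It was also a condition for naming the largest increases and decreases. The median log2 fold change (MD+CA relative to MD, here and below) was -0.003 over all genes, with 49.7% positive. The called genes moved by at least 2 fold in 116 of 145 cases upward and 183 of 224 downward, and the smallest change called was 0.67 on the log2 scale. By class, 135 protein-coding genes rose and 193 fell among 12057, and 5 long non-coding RNA genes rose and 23 fell among 941. Calls were rarest among the 2726 least abundant genes (1.17%) and took 2.75, 2.75, 3.37 and 3.48% of the next 4 groups of that size, in order of abundance.

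**Figure D1:**
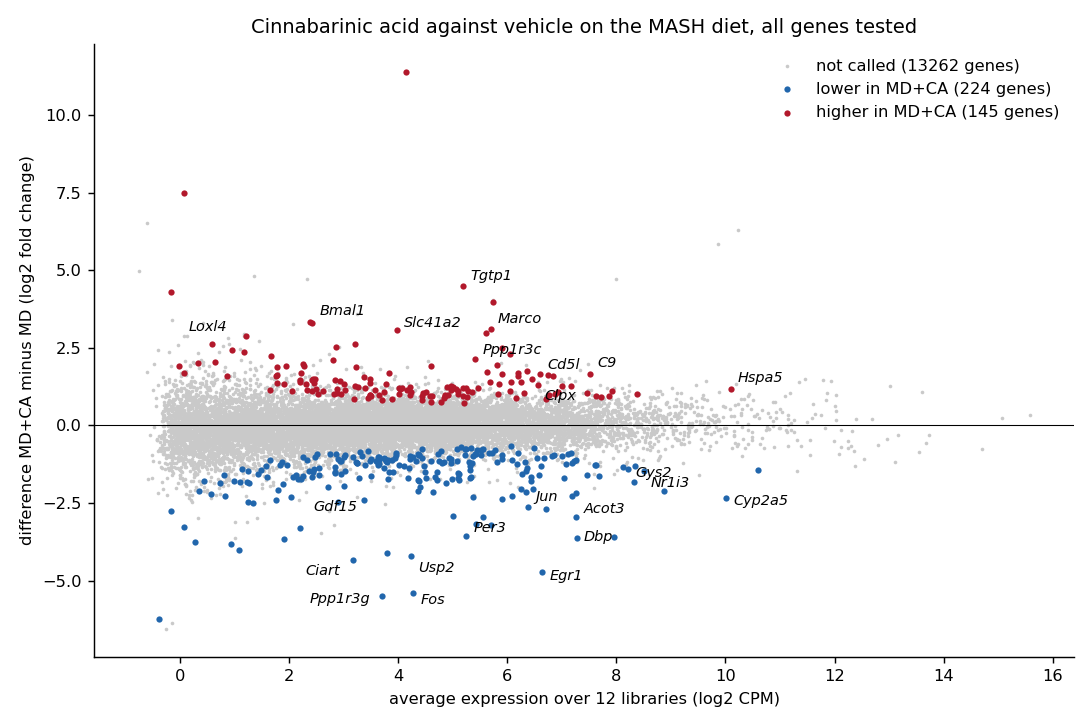
Log2 fold change of MD+CA minus MD (vertical axis) against the average level over 12 libraries in log2 CPM (horizontal axis), 1 point per gene tested. Red marks the 145 genes higher and blue the 224 genes lower at an adjusted p under 0.05, and the named genes are described in the text. The highest point, the pseudogene Gm2223, had 0 reads in all 4 MD libraries and in MD+CA replicate 1.

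The number of genes called depended on single libraries, and the direction of the called genes did not. In the 12 fits that each left out 1 library (left-out fits below) no called gene turned its sign. Most called genes did not overlap between the groups, so leaving out 1 library could hardly turn their sign. The counts higher and lower fell to 38 and 71 without MD replicate 1, 49 and 81 without MD replicate 2, 57 and 113 without MD replicate 4, 58 and 61 without MD+CA replicate 2, and 64 and 65 without MD+CA replicate 3. They rose to 450 and 513 without MD replicate 3 and to 360 and 404 without MD+CA replicate 1. Without CD replicate 1 they were 97 and 136, without CD replicate 3 they were 95 and 152, and without MD+CA replicate 4 they were 120 and 140. In all 12 left-out fits 66 genes kept their call, 26 higher and 40 lower, and each gene named below is said to be one of them where it is. Over these and the 10 other refits listed under processing, 34 genes kept it. A call that held in all 12 may therefore be lost in another refit. With MD replicate 2 and MD+CA replicate 3 both left out, a refit chosen after seeing the data, the counts were 28 and 39. With the 8 MD and MD+CA libraries fitted alone they were 34 and 65.

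**Figure D2:**
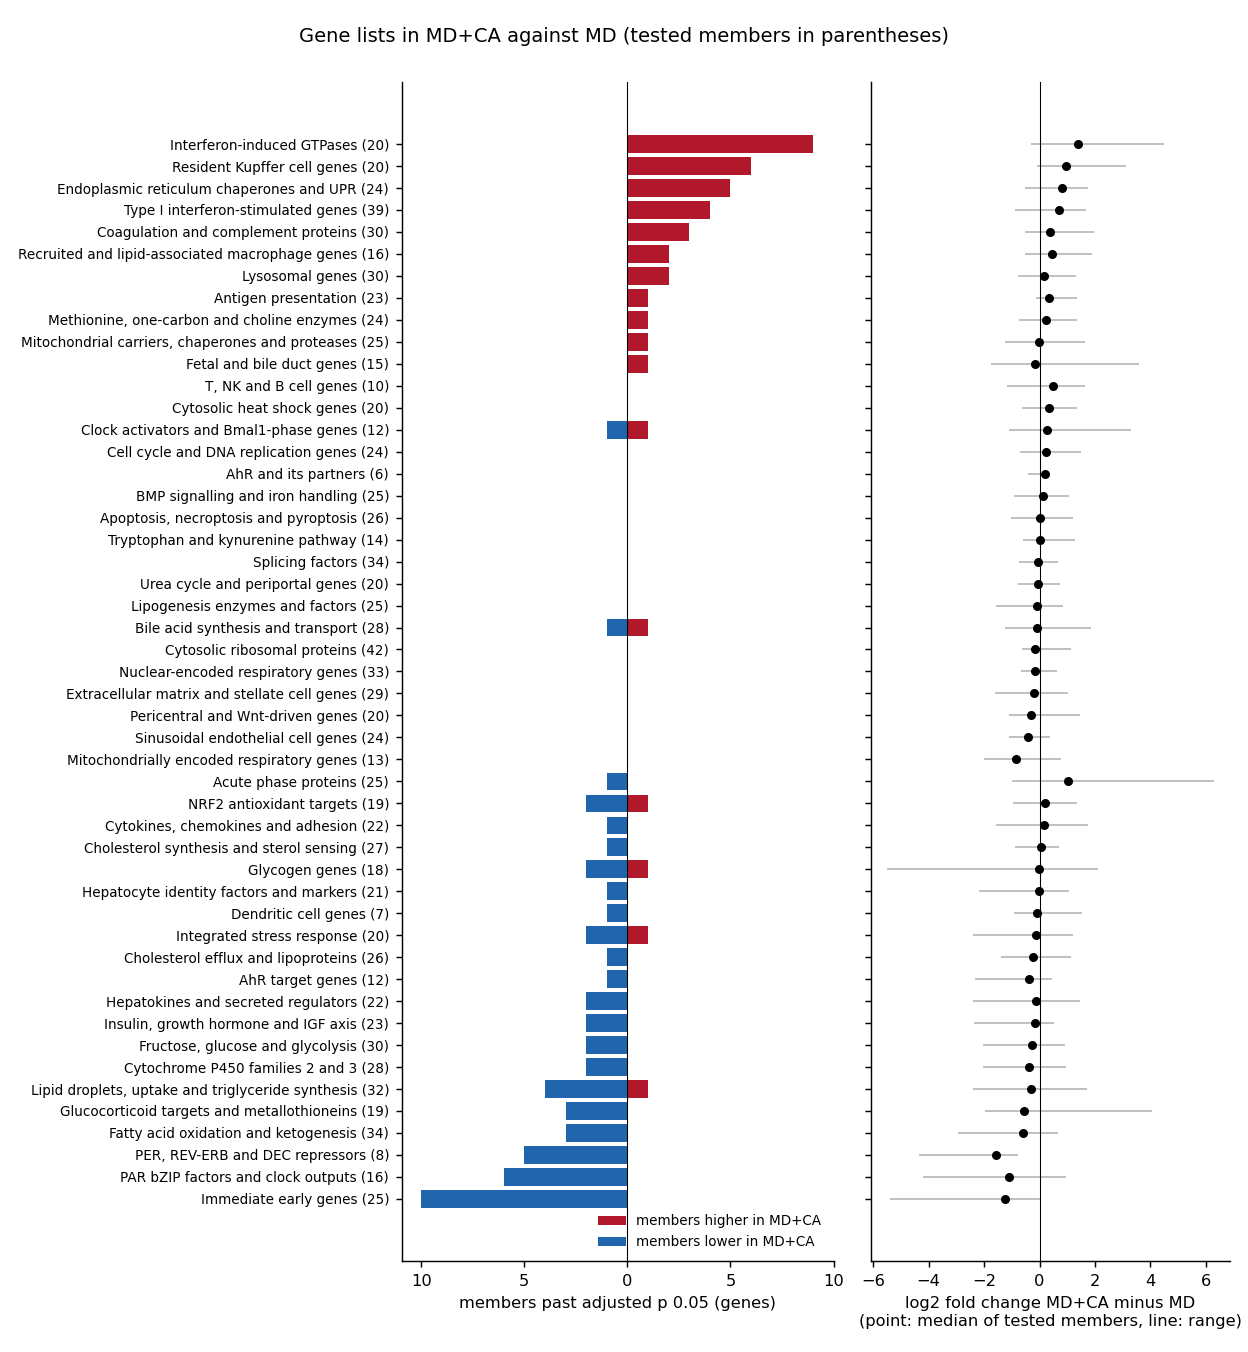
Left, the number of members of each gene list past an adjusted p of 0.05, to the right where higher and to the left where lower in MD+CA (49 lists with at least 5 tested members, their number in parentheses). Right, the median (point) and range (line) of the members' log2 fold changes. Interferon-induced GTPases had the most members higher (9 of 20) and immediate early genes the most lower (10 of 25).

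The receptor itself and its partners did not pass the test in either direction. Ahr had 31.5, 32.4, 23.3 and 36.5 CPM in MD replicates 1 to 4 and 13.7, 28.1, 20.001 and 31.2 CPM in MD+CA replicates 1 to 4 (log2 fold change -0.41 with an SE of 0.25, adjusted p = 0.329), and the groups overlapped. Values are given in replicate order from here on. Arnt, its dimer partner, had a log2 fold change of 0.25 (adjusted p = 0.498), and 0 of the 6 tested genes for AhR and its partners had an unadjusted p under 0.05 with edgeR. Of 12 tested target genes 1 fell and 0 rose, and the list's median was -0.39, with 9 of 12 negative and 5 lower at an unadjusted p under 0.05. The member that fell was Cyp2a5, a hepatic enzyme that hydroxylates coumarin and is also under other xenobiotic regulators. It had 2223, 2235, 1070.3 and 1765 CPM in MD and 583, 379, 93.4 and 382 CPM in MD+CA (log2 fold change -2.34 with an SE of 0.45, adjusted p = 0.0179), so all MD+CA libraries lay below all MD libraries. Its call was lost without MD+CA replicate 2, and its values over the left-out fits were -2.67 to -2.03. Cyp1a2, a constitutive hepatic target of AhR, had 434, 288, 275 and 192 CPM in MD and 233, 204, 87.0 and 227 CPM in MD+CA (-0.66, adjusted p = 0.212). Tiparp, a feedback repressor of the receptor, Cyp1b1 and Nqo1, a quinone reductase, had values of -0.43, 0.43 and -0.35 (adjusted p = 0.293, 0.730 and 0.453).

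The most specific targets lay near the limit of detection. Cyp1a1 had 6, 4, 1 and 3 reads in the MD libraries and 1, 1, 0 and 3 in the MD+CA libraries. Stc2 had 14, 5, 6 and 9 reads in MD, 5, 1, 2 and 6 in MD+CA and 5, 7, 5 and 4 in CD. Both were removed by the filter on low counts, and without that filter their log2 fold changes were -1.22 and -0.99 (edgeR adjusted p = 0.596 and 0.526). Ahrr, the AhR repressor, had 0 to 3 reads in every library of both groups and did not pass without the filter either (edgeR adjusted p = 0.663).

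Of 14 tested genes of tryptophan and kynurenine metabolism 0 rose and 0 fell with edgeR, with a median of 0.01, and 2 were higher and 1 lower at an unadjusted p under 0.05. Tdo2, the dioxygenase that opens the indole ring of tryptophan, had 414, 239.7, 799 and 654 CPM in MD and 753, 903, 552 and 1039.5 CPM in MD+CA (0.62, adjusted p = 0.254). Kmo, which makes 3-hydroxykynurenine, had a log2 fold change of 0.05 (adjusted p = 0.893). Kynu, which makes 3-hydroxyanthranilic acid, had 72.0, 47.7, 83.8 and 67.7 CPM in MD and 108.5, 95.8, 130.01 and 148 CPM in MD+CA and did not overlap, and it missed the threshold (log2 fold change 0.83 with an SE of 0.22, adjusted p = 0.0553). Ddc, the decarboxylase of aromatic amino acids, belonged to no list and was picked after its values were seen. It rose from 21.5, 13.4, 20.1 and 21.4 CPM in MD to 57.6, 40.6, 41.5 and 42.5 CPM in MD+CA (log2 fold change 1.25 with an SE of 0.21, adjusted p = 0.0145) and held in all 12 left-out fits.

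Clock genes changed in opposite directions: Bmal1 rose, while repressors and outputs that Bmal1 activates fell. Bmal1, the activator, had 1.33, 1.93, 1.13 and 0.716 CPM in MD and 17.1, 8.76, 14.6 and 10.2 CPM in MD+CA (log2 fold change 3.31 with an SE of 0.39, adjusted p = 0.00136), with the lowest MD+CA library above every MD library. In CD it had 2.70, 1.62, 2.41 and 0.765 CPM, and the call held in all 12 left-out fits. Npas2, a partner of Bmal1, had 0.911, 1.32, 0.526 and 0 CPM in MD and 7.99, 2.05, 5.19 and 1.64 CPM in MD+CA, did not overlap and missed the threshold (2.62, adjusted p = 0.0680). Clock, the other partner, had 22.3, 29.9, 19.5 and 18.3 CPM in MD and 29.3, 32.9, 40.1 and 35.2 CPM in MD+CA (0.61, adjusted p = 0.123). Both partners were higher on average without passing. Of the 12 tested genes of the activator list 1 rose, Bmal1, and 1 fell.

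Of 8 tested PER, REV-ERB and DEC repressors 5 fell and 0 rose, all 8 were negative, and the median was -1.56. Per3 had 58.2, 91.1, 56.8 and 58.0 CPM in MD and 3.86, 4.83, 1.52 and 11.8 CPM in MD+CA (log2 fold change -3.56 with an SE of 0.43, adjusted p = 0.00136), and MD+CA replicate 4 stood highest in its group but below every MD library. Ciart, which represses the Clock and Bmal1 pair, had 10.44, 12.2, 25.1 and 26.8 CPM in MD and 0.459, 1.56, 0.127 and 1.30 CPM in MD+CA (log2 fold change -4.35 with an SE of 0.55, adjusted p = 0.00162). The groups were apart for both. Per2, a core repressor, had 41.5, 63.4, 67.5 and 68.0 CPM in MD and 7.16, 26.6, 16.5 and 24.3 CPM in MD+CA (-1.69, adjusted p = 0.0205). Per1, its relative, had 37.2, 41.8, 24.0 and 31.0 CPM in MD and 5.69, 16.5, 3.80 and 7.70 CPM in MD+CA (-1.98, adjusted p = 0.0254). Nr1d2, which encodes REV-ERB beta, had 202, 252, 143 and 160.0 CPM in MD and 88.1, 81.7, 46.6 and 123 CPM in MD+CA (-1.16, adjusted p = 0.0409). Nr1d1, which encodes REV-ERB alpha, did not pass (-0.84, adjusted p = 0.299): MD+CA replicate 4 stood at 68.5 CPM, within the MD range of 27.9 to 90.1 CPM. The calls of Per3 and Ciart held in all 12 left-out fits. Per2 lost its call without MD replicate 2 or MD+CA replicate 3 (-1.91 to -1.41 over the left-out fits), Per1 without MD replicates 1 or 2 or MD+CA replicates 3 or 4 (-2.53 to -1.76), and Nr1d2 kept it in 3 of 12 (-1.39 to -0.96).

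Among 16 tested PAR bZIP factors and clock outputs 6 fell and 0 rose, with a median of -1.09 and 15 negative. Dbp, which drives D-box genes, had 321, 271, 177 and 235 CPM in MD and 8.73, 13.7, 4.43 and 54.5 CPM in MD+CA (log2 fold change -3.62 with an SE of 0.60, adjusted p = 0.0137). Tef, its relative, had 224, 321, 171 and 218 CPM in MD and 51.3, 46.7, 23.5 and 71.6 CPM in MD+CA (log2 fold change -2.27 with an SE of 0.32, adjusted p = 0.00350). Their relative Hlf fell by less (-0.83, adjusted p = 0.0478), kept in 4 of 12 left-out fits (-0.96 to -0.73). Usp2, a deubiquitinase under clock control, had 22.8, 40.5, 44.8 and 45.9 CPM in MD and 2.30, 2.70, 0.886 and 2.25 CPM in MD+CA, the smallest p of all genes tested (log2 fold change -4.21 with an SE of 0.34, adjusted p = 3.34e-05). Rgs16, a regulator of G protein signals with a strong daily rhythm in liver, had 486, 443, 386 and 166 CPM in MD and 3.49, 17.9, 5.95 and 94.2 CPM in MD+CA (-3.60, adjusted p = 0.0328), with MD+CA replicate 4 nearest to MD. It lost its call without MD replicates 1 or 2 or MD+CA replicates 2 or 3 (-5.32 to -3.23). Upp2, a uridine phosphorylase outside the lists that was picked after its values were seen, fell from 702, 903, 544 and 763 to 244, 154, 66.7 and 202 CPM (-2.12, adjusted p = 0.0171). Dbp, Tef, Usp2 and Upp2 held in all 12 left-out fits, and the list's sixth call, Por, is described with the xenobiotic genes.

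**Figure D3:**
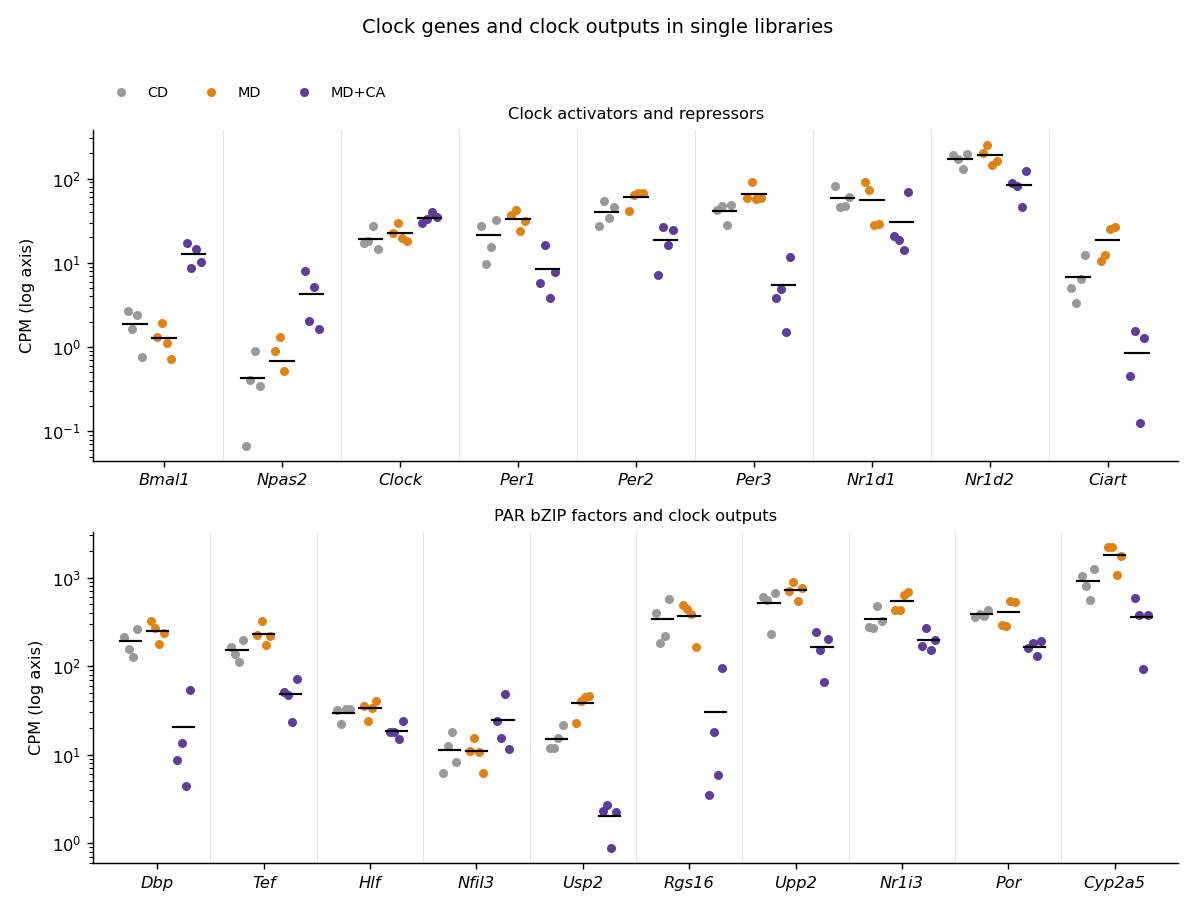
CPM on a log axis in the 4 CD (grey), 4 MD (orange) and 4 MD+CA (purple) libraries, with a black line at each group mean, for clock activators and repressors (top) and clock outputs (bottom); Npas2 was at 0 CPM in MD replicate 4, which the log axis cannot show but the mean includes. Bmal1 lies between 8.76 and 17.1 CPM in MD+CA, above the 0.716 to 2.70 CPM of the 8 other libraries, and Per3 lies between 1.52 and 11.8 CPM in MD+CA, below the 28.3 CPM of the lowest other library.

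Some start-site windows of clock genes held the motifs through which the clock acts. Windows of 300 bases, from 250 before to 50 after each annotated start, were taken from RefSeq on GRCm38.p6 where the table held the gene, which gave 125 windows of genes that rose, 223 of genes that fell and 12748 of all genes tested. The build differs from that of the count tables, which was used for no coordinate here. The E-box CACGTG, which reads the same on both strands, was in 32 windows of genes that fell (14.3%), 10 of genes that rose (8%) and 1228 of all (9.63%). The D-box TTANGTAA, on either strand, was in 2.24, 0.8 and 1.6% of them, and the REV-ERB element core TAGGTCA in 1.35, 3.2 and 2.07%. Of the 11 clock repressors and outputs that fell, 10 had a window. An E-box was found in 3 of them and a D-box in 1, and the other 6 (Dbp, Hlf, Nr1d2, Por, Rgs16 and Usp2) held neither. The stretches below are shown because they belong to clock genes that fell and hold a motif, and capitals mark the E-box or, in Per3, the D-box.
Per1 (chr11:69098748-69098823, plus strand): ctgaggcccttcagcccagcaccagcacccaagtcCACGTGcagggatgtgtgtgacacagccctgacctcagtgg
Ciart (chr3:95882232-95882379, minus strand): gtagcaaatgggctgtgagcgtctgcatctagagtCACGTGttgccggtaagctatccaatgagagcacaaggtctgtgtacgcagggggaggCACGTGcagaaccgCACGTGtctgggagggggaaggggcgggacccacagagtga
Tef (chr15:81802511-81802586, plus strand): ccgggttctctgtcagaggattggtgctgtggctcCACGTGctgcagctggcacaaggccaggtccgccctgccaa
Per3 (chr4:151044781-151044905, minus strand): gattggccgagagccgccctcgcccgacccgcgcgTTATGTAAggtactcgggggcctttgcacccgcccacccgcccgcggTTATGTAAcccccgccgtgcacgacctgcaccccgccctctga
Ciart carried 3 E-boxes in this window, the first starting 116 bases before its start site. The copies of Per1 and Tef began 166 and 127 bases before theirs, and Per3 carried 2 D-boxes, the first starting 205 bases before. A match describes the letters of the window and does not show binding. The xenobiotic response element core TNGCGTG, which AhR and Arnt bind, was in 5.6% of windows of genes that rose, 6.73% of genes that fell and 7.59% of all.

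Several immediate early genes, which cells switch on within minutes of a stimulus, fell. Of 25 tested 10 fell and 0 rose, 24 were negative, and the median was -1.26. Jun, a subunit of AP-1, had 235, 300.5, 181 and 50.5 CPM in MD and 27.6, 45.5, 34.9 and 17.2 CPM in MD+CA (log2 fold change -2.61 with an SE of 0.48, adjusted p = 0.0171). Ier2, a short-lived nuclear factor, had 118, 190.3, 66.0 and 19.9 CPM in MD and 18.2, 10.39, 8.35 and 6.40 CPM in MD+CA (log2 fold change -3.18 with an SE of 0.58, adjusted p = 0.0171). Fos, the partner of Jun, had 83.7, 108.03, 23.2 and 2.55 CPM in MD and 2.20, 1.39, 1.01 and 0.432 CPM in MD+CA (log2 fold change -5.41 with an SE of 1.02, adjusted p = 0.0178). All 3 genes were lower in every MD+CA library than in any MD library, by little in each case through MD replicate 4. Egr1, a zinc finger factor, had 354, 539, 121 and 37.8 CPM in MD and 14.8, 11.2, 7.34 and 5.97 CPM in MD+CA (-4.74, adjusted p = 0.0198). The spread lay in MD: its replicates 1 and 2 were highest for each of these genes and its replicate 4 lowest, while MD+CA stayed within a narrower band. Junb, Btg2, Zfp36, Maff, Gadd45b and Ccn1 also fell, with log2 fold changes of -3.20, -2.92, -2.26, -1.69, -1.58 and -2.10 (adjusted p = 0.0208, 0.0304, 0.0235, 0.0206, 0.0492 and 0.0233). Pim3, a kinase outside the lists picked after its values were seen, fell from 111, 163, 49.6 and 51.7 to 19.7, 12.9, 5.95 and 9.597 CPM (-2.95, adjusted p = 0.0171). The CD libraries had 26.5, 12.4, 23.2 and 42.3 CPM of Jun and 27.1, 2.33, 6.80 and 67.7 CPM of Egr1. MD replicates 1 and 2 were also those with the highest mitochondrial shares, 10.7 and 17.5%, and the part of that share in these genes was not tested. Jun, Ier2 and Pim3 held in all 12 left-out fits. Fos lost its call without MD+CA replicate 2 (-5.83 to -4.84 over the left-out fits), Egr1 without MD replicate 2 or MD+CA replicates 2, 3 or 4 (-5.10 to -4.12), Maff without MD replicate 1 or MD+CA replicates 2 or 3 (-1.93 to -1.45), and Gadd45b kept it in 2 of 12 (-1.80 to -1.43). Junb, Btg2, Zfp36 and Ccn1 lost theirs without MD replicates 1 or 2 or MD+CA replicates 2, 3 or 4. Calls in the list numbered 2 without MD+CA replicate 2, 3 without MD+CA replicate 3, 4 without MD replicate 1, MD replicate 2 or MD+CA replicate 4, and 10 without the others of these 8, and 1 without MD replicate 2 and MD+CA replicate 3 together.

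Hormones and factors of the integrated stress response divided. Gdf15, a circulating hormone raised by cell stress, had 27.0, 34.4, 17.5 and 10.3 CPM in MD and 4.23, 2.54, 5.44 and 4.76 CPM in MD+CA (log2 fold change -2.40 with an SE of 0.39, adjusted p = 0.0118), no overlap, and 4.59, 1.72, 3.93 and 5.35 CPM in CD. It held in all 12 left-out fits. Cebpb, a bZIP factor of the acute and stress responses, had 431, 358, 158 and 195 CPM in MD and 71.8, 69.8, 53.7 and 55.1 CPM in MD+CA (log2 fold change -2.19 with an SE of 0.43, adjusted p = 0.0198) and lost its call without MD replicates 1 or 2 or MD+CA replicates 2 or 3 (-2.39 to -1.92). Ddit3, which encodes CHOP, moved the other way, with 18.99, 24.3, 27.8 and 30.2 CPM in MD and 36.4, 58.4, 98.99 and 39.3 CPM in MD+CA (1.198, adjusted p = 0.0397), and kept its call in 3 of 12 left-out fits (0.81 to 1.37). Of the 20 tested genes of this response 1 rose and 2 fell, with a median of -0.13, and Atf4, its central factor, had a value of 0.21 (adjusted p = 0.652). Among 22 hepatokines the calls were Gdf15 and Angptl4, an inhibitor of lipoprotein lipase. Angptl4 had 100.5, 95.7, 168 and 145 CPM in MD and 15.9, 32.6, 37.5 and 60.7 CPM in MD+CA (-1.80, adjusted p = 0.0288) and lost its call without MD replicates 1 or 4 or MD+CA replicates 2 or 3 (-2.14 to -1.55). Fgf21, a fasting-induced hormone, had 7.71, 3.97, 3.83 and 7.88 CPM in MD and 2.02, 2.29, 2.91 and 2.68 CPM in MD+CA and did not overlap but missed the threshold (-1.25, adjusted p = 0.0640).

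Some chaperones and foldases of the endoplasmic reticulum rose. Of 24 tested genes of the unfolded protein response 5 rose and 0 fell, 21 were positive, 15 were higher at an unadjusted p under 0.05, and the median was 0.79. Hyou1, a large chaperone of the lumen, had 48.1, 27.1, 56.8 and 25.4 CPM in MD and 76.9, 100.9, 145 and 202 CPM in MD+CA (log2 fold change 1.74 with an SE of 0.32, adjusted p = 0.0171). Hspa5, which encodes BiP, the main lumenal HSP70, had 889, 542, 789 and 636 CPM in MD and 1554, 1225, 1703 and 1903 CPM in MD+CA (log2 fold change 1.16 with an SE of 0.24, adjusted p = 0.0222). Both had every MD+CA library above every MD library. Manf, a small secreted partner of BiP, had 83.9, 34.1, 84.1 and 43.5 CPM in MD and 125, 127, 275 and 209 CPM in MD+CA (1.58, adjusted p = 0.0233). Creld2, a folding factor, had 28.6, 14.7, 29.4 and 18.5 CPM in MD and 42.5, 32.8, 63.0 and 69.5 CPM in MD+CA (1.19, adjusted p = 0.0349). Dnajb9, a BiP cochaperone, had 31.0, 17.2, 43.5 and 44.3 CPM in MD and 38.5, 85.0, 123 and 163 CPM in MD+CA (1.59, adjusted p = 0.0482). The groups did not overlap for Manf and Creld2, and overlapped for Dnajb9 through MD+CA replicate 1. Pdia4, Calr and Hsp90b1 had values of 1.31, 1.049 and 0.83 (adjusted p = 0.0584, 0.0534 and 0.0958), and Xbp1, a factor that drives these genes, 0.72 (adjusted p = 0.0874). The summed level of the list was 7097 to 9722 CPM in MD, 12247 to 19245 CPM in MD+CA and 9551 to 15540.1 CPM in CD. Hyou1 held in all 12 left-out fits. The list had 1 call when MD replicate 2 or 4 or MD+CA replicate 3 was left out, and 3 when MD replicate 1 or MD+CA replicate 4 was. It had 4 calls without MD+CA replicate 2, 9 without MD replicate 3, 11 without MD+CA replicate 1, and 0 without MD replicate 2 and MD+CA replicate 3 together. Hspa5 and Manf lost theirs without MD replicate 2 or 4 or MD+CA replicate 3 (1.049 to 1.28 and 1.32 to 1.78), Creld2 also without MD replicate 1 or MD+CA replicate 4 (1.02 to 1.36), and Dnajb9 kept its call in 2 of 12 (1.28 to 1.86).

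The cytosolic heat shock genes did not pass: 0 of 20 rose or fell with edgeR, the median was 0.32, and 4 were higher at an unadjusted p under 0.05. The element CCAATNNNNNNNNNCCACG, through which the unfolded protein response acts, was added to the motif search after the data were seen. It was in 2 of 125 windows of genes that rose (1.6%), 0 of 223 of genes that fell and 20 of 12748 of all (0.157%). Both windows belonged to genes of this list and are shown with the element in capitals. That of Creld2 lies on the reverse strand.
Hspa5 (chr2:34771990-34772078, plus strand): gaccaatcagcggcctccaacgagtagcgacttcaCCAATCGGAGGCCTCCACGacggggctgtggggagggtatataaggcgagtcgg
Creld2 (chr15:88819485-88819573, plus strand): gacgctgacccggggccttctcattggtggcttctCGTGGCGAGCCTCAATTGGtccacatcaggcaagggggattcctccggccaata

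In mitochondria, Clpx, the unfoldase subunit of the matrix protease ClpXP, rose from 66.4, 48.3, 69.6 and 54.8 to 196, 179.7, 182 and 183 CPM (log2 fold change 1.63 with an SE of 0.21, adjusted p = 0.00162), and it held in all 12 left-out fits. In CD it had 88.1, 76.7, 86.9 and 53.3 CPM. It was the only call among 25 tested mitochondrial carriers, chaperones and proteases (4%, near the 2.71% of all genes, median -0.01). The 13 mitochondrially encoded respiratory genes had a median of -0.85 with 0 calls and 9 lower at an unadjusted p under 0.05, and the 33 nuclear-encoded respiratory genes a median of -0.17 with 0 calls and 3 lower at an unadjusted p under 0.05.

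Several genes of resident liver macrophages, the Kupffer cells, rose. Of 20 tested 6 rose and 0 fell, 19 were positive, 15 were higher at an unadjusted p under 0.05, and the median was 0.96. Cd5l, a secreted scavenger receptor of macrophages, had 36.4, 55.2, 64.5 and 58.9 CPM in MD and 222, 179, 165 and 104.3 CPM in MD+CA (log2 fold change 1.64 with an SE of 0.26, adjusted p = 0.0105). Csf1r, the receptor for the macrophage growth factor CSF1, had 8.34, 13.2, 13.4 and 12.9 CPM in MD and 21.9, 26.7, 23.2 and 24.6 CPM in MD+CA (log2 fold change 1.01 with an SE of 0.19, adjusted p = 0.0171). C1qa, a subunit of complement C1q, had 12.96, 10.1, 19.4 and 21.2 CPM in MD and 37.5, 34.4, 31.9 and 27.8 CPM in MD+CA (1.04, adjusted p = 0.0245). The groups were apart for all 3, and MD+CA replicate 4 was nearest to MD for Cd5l and C1qa. Marco, a scavenger receptor, had 9.74, 9.77, 31.5 and 8.04 CPM in MD and 141, 281, 59.1 and 32.7 CPM in MD+CA (3.12, adjusted p = 0.0198), highest in MD+CA replicate 2. Vsig4, a complement receptor, had 11.2, 10.996, 23.9 and 20.6 CPM in MD and 27.0, 28.9, 45.4 and 38.3 CPM in MD+CA (1.06, adjusted p = 0.0424). Xlr, at low levels throughout, had 0.350, 0.305, 0.526 and 0.557 CPM in MD and 1.65, 1.23, 1.65 and 1.30 CPM in MD+CA (1.70, adjusted p = 0.0349). None of these 3 overlapped. Clec4f, which among liver cells marks Kupffer cells, had 73.3, 121, 107.9 and 98.7 CPM in MD and 199, 137, 219 and 103.7 CPM in MD+CA (0.71, adjusted p = 0.111), and it overlapped and missed the threshold. Timd4, a receptor of resident macrophages, had a log2 fold change of 1.19 (adjusted p = 0.0509). The list summed to 420.0 to 585 CPM in MD, 663 to 1121 CPM in MD+CA and 500.03 to 556 CPM in CD. In whole tissue, more cells of a type and more RNA per cell cannot be told apart. Cd5l and Csf1r held in all 12 left-out fits, and the list had 2 calls when MD replicate 1 or MD+CA replicate 2 was left out, 3 when MD replicate 2 or 4 or MD+CA replicate 3 was, and 10 when MD replicate 3 was. Without MD replicate 2 and MD+CA replicate 3 together it had 2. Marco lost its call without MD replicates 1, 2 or 4 or MD+CA replicate 2 (2.39 to 3.80), C1qa without MD replicate 1 or MD+CA replicates 2 or 3 (0.88 to 1.22), and Vsig4 and Xlr kept theirs in 2 and 4 of 12 (0.90 to 1.29 and 1.59 to 1.84).

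A further 3 macrophage genes outside that list were picked after their values were seen, so their direction says nothing of such genes in general. Mpeg1, a pore-forming protein of phagocytes, rose from 48.1, 42.1, 38.9 and 43.4 to 91.5, 123, 122 and 116 CPM (log2 fold change 1.39 with an SE of 0.19, adjusted p = 0.00350). Aif1, a cytoskeletal protein of macrophages, had 6.87, 7.74, 7.21 and 6.53 CPM in MD and 20.02, 26.1, 18.4 and 9.34 CPM in MD+CA (1.38, adjusted p = 0.0171). Axl, a receptor for dying cells, had 7.92, 9.47, 10.1 and 12.2 CPM in MD and 22.1, 18.5, 20.001 and 22.999 CPM in MD+CA (1.08, adjusted p = 0.0145). All 3 had no overlap and held in all 12 left-out fits. Of 16 tested genes of recruited and lipid-associated macrophages 2 rose, with a median of 0.43. Lpl, lipoprotein lipase, had 24.2, 36.9, 26.8 and 23.2 CPM in MD and 104.98, 137, 59.6 and 64.2 CPM in MD+CA (log2 fold change 1.72 with an SE of 0.28, adjusted p = 0.0120). Clec7a, the beta-glucan receptor, had 1.68, 1.12, 3.005 and 3.90 CPM in MD and 6.06, 11.4, 9.49 and 9.86 CPM in MD+CA (1.91, adjusted p = 0.0248). Lpl held in all 12 left-out fits and Clec7a was lost without MD replicates 1 or 2 or MD+CA replicates 2 or 3 (1.69 to 2.23). Ccr2, the receptor of recruited monocytes, had a value of 0.24 (adjusted p = 0.697), and Trem2 had 7, 2, 5 and 7 reads in MD and 8, 1, 4 and 14 in MD+CA, removed by the filter on low counts (0.62 and edgeR adjusted p = 0.670 without it). Among other leukocytes, 0 of 10 tested T, NK and B cell genes passed with edgeR (median 0.50, 3 higher at an unadjusted p under 0.05), and Cd3e, a subunit of the T cell receptor complex, had 1 to 9 reads in MD and 1 to 15 in MD+CA. Of 7 dendritic cell genes 1 fell, Zbtb46, a transcription factor of that lineage (-0.91, adjusted p = 0.0499), which kept its call in 2 of 12 left-out fits (-1.02 to -0.70). Of 30 tested lysosomal genes 2 rose, the cathepsins Ctsc and Ctss (1.07 and 1.33, adjusted p = 0.0245 and 0.0250), with a median of 0.15 over the list, and both lost their call without MD replicate 1, MD replicate 2 or MD+CA replicate 2, and Ctsc also without MD replicate 4 or MD+CA replicate 3 (0.94 to 1.22 for Ctsc and 1.07 to 1.51 for Ctss). Ctss, which trims the MHC class II invariant chain, was also the only call among 23 antigen presentation genes (4.35%, near the 2.71% of all genes, median 0.35).

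A part of the interferon-induced genes rose, and those that did among the GTPases were highest in 1 library. Of 20 tested interferon-induced GTPases 9 rose and 0 fell, 19 were positive, and the median was 1.39. Gvin1, a very large member, had 13.7, 12.7, 14.6 and 14.1 CPM in MD and 49.0, 295, 45.1 and 45.0 CPM in MD+CA (log2 fold change 2.98 with an SE of 0.54, adjusted p = 0.0171), with MD+CA replicate 2 far above the 3 others of its group, which were themselves above all of MD. Irgm2, which guards membranes against other GTPases of the family, had 32.3, 21.0, 38.6 and 32.6 CPM in MD and 63.0, 150.0, 54.3 and 63.9 CPM in MD+CA (1.41, adjusted p = 0.0246). Gbp6, a guanylate-binding protein, had 25.6, 33.8, 25.5 and 27.4 CPM in MD and 76.8, 355, 40.9 and 84.8 CPM in MD+CA (2.31, adjusted p = 0.0320). MD+CA replicate 2 was again highest, and neither gene overlapped between groups. Gbp6-203, a transcript annotated for nonsense-mediated decay, took 73.6% of the pooled Gbp6 reads in MD and 54.6% in MD+CA. Tgtp1, another GTPase of the family, had 6.52, 3.67, 3.53 and 3.58 CPM in MD and 14.8, 331, 26.6 and 22.4 CPM in MD+CA (4.51, adjusted p = 0.0205) and shares reads with a near-identical neighbour. Gbp10, Gbp2b, Gbp5, Irgm1 and Ifi47 rose by 2.49, 2.52, 1.90, 1.08 and 1.26 (adjusted p between 0.0376 and 0.0488), each with its highest value in MD+CA replicate 2. The summed level of the list was 745 to 1072 CPM in MD and 1147 to 5052 CPM in MD+CA. Without MD+CA replicate 2 the list's median was 0.74 and 2 members were called, and the fold change of Gvin1, which held in all 12 left-out fits, was 1.75. It had 1 call when MD replicate 1, 2 or 4 was left out, 5 without MD+CA replicate 4, 7 to 10 without each of the other 3 of these 8, and 2 without MD replicate 2 and MD+CA replicate 3 together. Gbp6 and Irgm2 lost their calls without MD replicate 1, 2 or 4 or MD+CA replicate 2 (1.27 to 2.61 and 0.96 to 1.56) and Tgtp1 without MD replicate 1, 2 or 4 (2.29 to 4.87). The other 5 members kept theirs in 2 or 3 of 12 (1.24 to 2.82 for Gbp10, 1.34 to 2.94 for Gbp2b, 1.12 to 2.15 for Gbp5, 0.71 to 1.25 for Irgm1 and 0.91 to 1.45 for Ifi47).

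Of 39 tested type I interferon-stimulated genes 4 rose and 0 fell, with 35 positive and a median of 0.70. Cmpk2, a mitochondrial nucleotide kinase, had 3.50, 2.14, 3.98 and 3.34 CPM in MD and 8.91, 12.3, 8.10 and 7.18 CPM in MD+CA (log2 fold change 1.48 with an SE of 0.26, adjusted p = 0.0147) and held in all 12 left-out fits, while the list had 1 to 8 calls in them, with 1 without MD replicate 1, 2 or 4 or MD+CA replicate 2. Oasl1, an antiviral protein of the OAS family, had 3.57, 3.87, 4.21 and 4.46 CPM in MD and 5.14, 8.84, 10.8 and 8.21 CPM in MD+CA (1.03, adjusted p = 0.0409). Ifi47, described with the GTPases, was also among the calls. The groups were apart for Cmpk2 and Oasl1. Oasl1 kept its call in 2 of 12 left-out fits (0.87 to 1.199). Isg15 and Ifit1, common reporters of interferon action, had values of 0.90 and 0.75 (adjusted p = 0.157 and 0.172). The interferon-stimulated response element GAAANNGAAA, on either strand, was in 12 of 125 windows of genes that rose (9.6%), 1 of 223 of genes that fell (0.448%) and 402 of 12748 of all (3.15%). The window of Irgm1, not shown, held 2 copies, the first starting 30 bases before the start site. Capitals mark the element in 2 other GTPase windows, where it starts 64 bases before the start site in Irgm2 and 77 bases before in Tgtp1.
Irgm2 (chr11:58214878-58214957, plus strand): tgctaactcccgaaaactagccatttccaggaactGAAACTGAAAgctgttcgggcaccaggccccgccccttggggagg
Tgtp1 (chr11:48992279-48992358, minus strand): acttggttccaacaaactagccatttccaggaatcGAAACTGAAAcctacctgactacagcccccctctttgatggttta

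Of 30 tested coagulation and complement genes 3 rose and 0 fell, with a median of 0.38. All 3 encode secreted components of the membrane attack complex. C9 had 81.3, 56.8, 129 and 105.5 CPM in MD and 240.1, 234, 384 and 316 CPM in MD+CA (log2 fold change 1.65 with an SE of 0.28, adjusted p = 0.0145) and held in all 12 left-out fits. C8b had 29.0, 13.2, 25.4 and 23.2 CPM in MD and 57.0, 39.4, 177 and 78.1 CPM in MD+CA (1.95, adjusted p = 0.0198). C6 had 3.36, 3.26, 6.16 and 5.97 CPM in MD and 10.2, 10.5, 34.6 and 14.3 CPM in MD+CA (1.87, adjusted p = 0.0198). C8b and C6 were highest in MD+CA replicate 3, and none of the 3 genes overlapped between groups. C8b lost its call without MD replicate 2 (1.35 to 2.20) and C6 without MD replicates 1 or 2 (1.30 to 2.06). The other 2 tested subunits of C8, picked after their values were seen, did not pass, with 1.97 for C8a and -0.53 for C8g (adjusted p = 0.0592 and 0.142). In CD, C9 had 191, 204, 129 and 128 CPM, and C8b had 62.2, 49.6, 67.9 and 50.9 CPM, above all of MD.

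MD+CA replicate 3 alone carried an acute phase pattern. Saa2, a serum amyloid, had 27.1, 18.8, 61.7 and 73.2 CPM in MD and 56.0, 34.4, 14024 and 112 CPM in MD+CA (6.30, adjusted p = 0.0511). Saa1, which shares reads with it, had 27.7, 15.3, 67.2 and 80.6 CPM in MD and 46.0, 30.4, 10682 and 95.8 CPM in MD+CA (5.83, adjusted p = 0.0597). Orm2, an orosomucoid, and Lcn2, an iron-binding lipocalin, had 2792 and 562 CPM in that library and at most 46.3 and 19.8 CPM in the other MD+CA libraries. The list of 25 had 0 members higher with edgeR, 15 higher at an unadjusted p under 0.05, 23 positive and a median of 1.04. Without MD+CA replicate 3 the median was 0.26. The only member past the threshold (4%, near the 2.71% of all genes) was Il6ra, the interleukin 6 receptor. Il6ra fell from 43.7, 52.7, 73.7 and 69.5 to 29.2, 28.8, 38.7 and 23.7 CPM (-0.99, adjusted p = 0.0342). It lost its call without CD replicates 1 or 3, MD replicates 2 or 4 or MD+CA replicates 2 or 4 (-1.14 to -0.87). Of 22 cytokine, chemokine and adhesion genes 1 fell (4.55%, also near that share). It was Il15 (-1.56, adjusted p = 0.0492), kept in 2 of 12 left-out fits (-1.85 to -1.27). Il15ra, its receptor chain, which was picked after its values were seen, fell from 47.5, 82.1, 37.3 and 44.2 to 20.9, 19.4, 12.8 and 19.97 CPM (-1.52, adjusted p = 0.0137) and held in all 12.

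**Figure D4:**
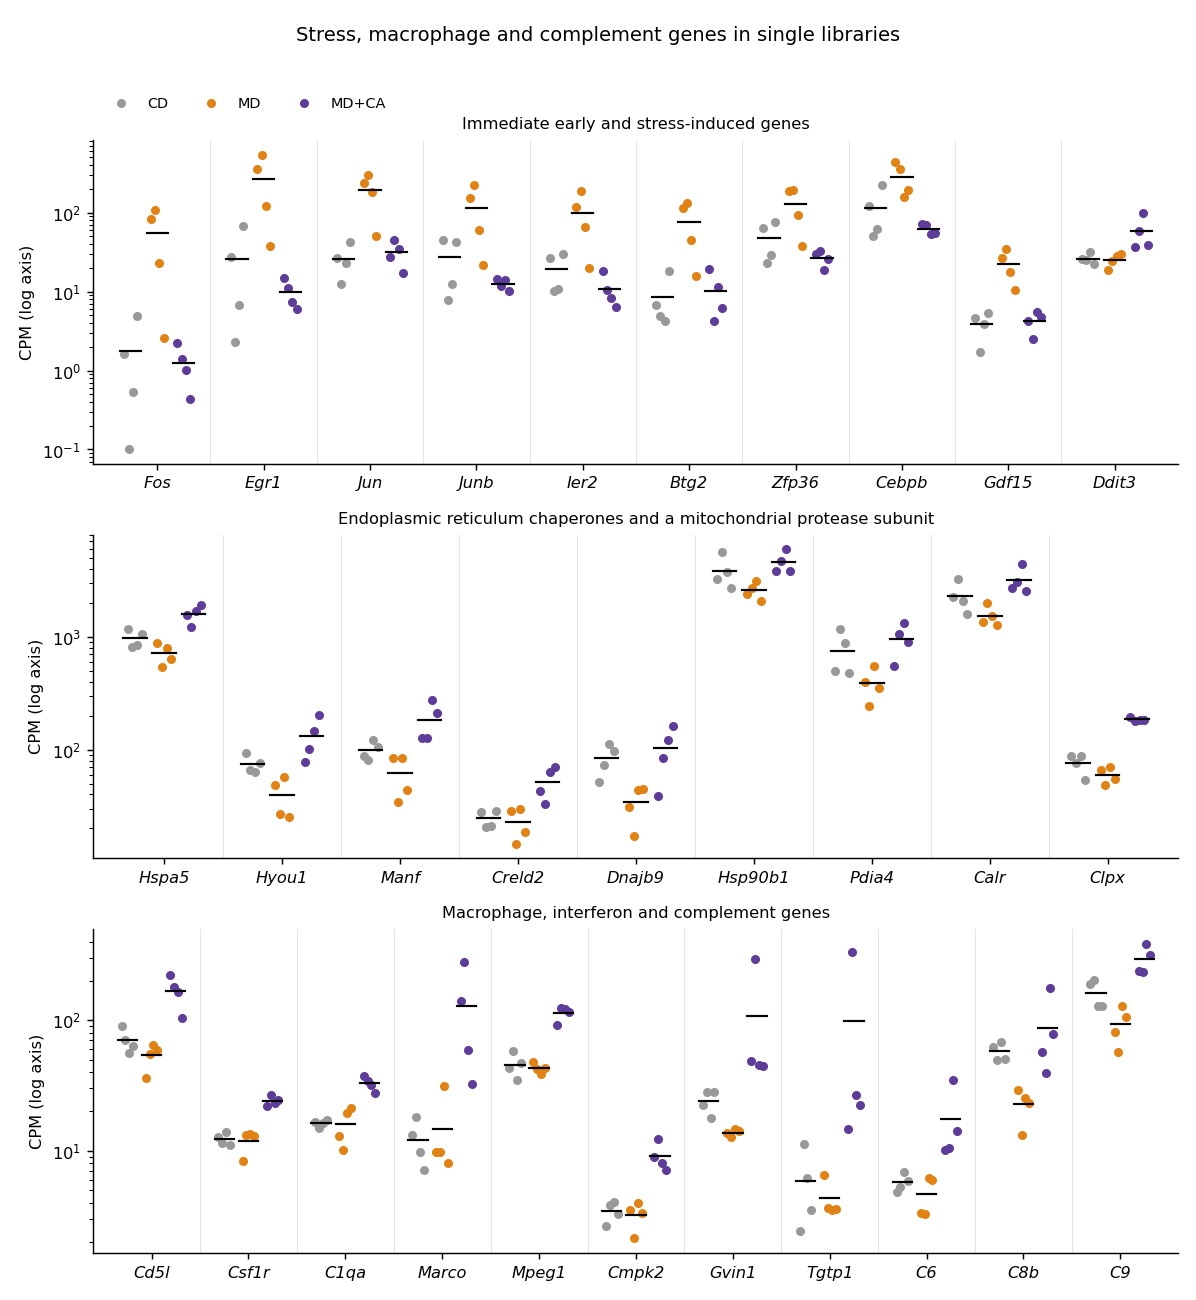
CPM on a log axis in the 4 CD (grey), 4 MD (orange) and 4 MD+CA (purple) libraries, with a black line at each group mean, for immediate early and stress genes (top), chaperones and Clpx (middle) and macrophage, interferon and complement genes (bottom). Clpx lies between 179.7 and 196 CPM in MD+CA and between 48.3 and 69.6 CPM in MD. Gvin1 and Tgtp1 reach 295 and 331 CPM in MD+CA replicate 2 alone.

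The xenobiotic genes Nr1i3 and Por fell. Nr1i3, the constitutive androstane receptor, which switches on cytochrome P450 genes, had 435, 431, 645 and 693 CPM in MD and 169, 273, 154 and 198 CPM in MD+CA (log2 fold change -1.47 with an SE of 0.27, adjusted p = 0.0171). Por, the reductase that passes electrons to all microsomal P450 enzymes, had 295, 287, 551 and 525 CPM in MD and 161, 183, 129.9 and 194 CPM in MD+CA (log2 fold change -1.31 with an SE of 0.25, adjusted p = 0.0179). The groups were apart for both genes, and both calls held in all 12 left-out fits. They were the only calls among 28 tested genes in the list of cytochrome P450 families 2 and 3, whose median was -0.38. Cyp2a5, a family 2 enzyme that also fell, was counted with the AhR targets above. Cyp2b10, the classical target of Nr1i3, stood at 0.506 to 4.81 CPM (-0.55, adjusted p = 0.589). The window of Nr1i3 held 1 E-box (capitals), 244 bases before the start site.
Nr1i3 (chr1:171213720-171213766, plus strand): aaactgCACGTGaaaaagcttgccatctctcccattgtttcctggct
Of 19 tested NRF2 targets Hmox1, heme oxygenase, rose (1.34, adjusted p = 0.0409), while Nfe2l2, which encodes NRF2, and Blvrb, a biliverdin reductase, fell (-0.89, adjusted p = 0.0437 and -0.96, adjusted p = 0.0342), and the median was 0.18. These 3 calls held in 4, 2 and 5 of 12 left-out fits (1.14 to 1.79, -1.001 to -0.63 and -1.12 to -0.88). Gstt2, a glutathione transferase picked after its values were seen, fell from 143, 146, 106.3 and 121 to 69.5, 45.5, 24.9 and 30.6 CPM (-1.60, adjusted p = 0.0179) and held in all 12.

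Glycogen genes changed at 3 points. Ppp1r3c, which targets protein phosphatase 1 to glycogen and favours its synthesis, rose from 20.3, 22.3, 15.2 and 10.03 to 95.1, 72.0, 74.7 and 53.9 CPM (log2 fold change 2.12 with an SE of 0.27, adjusted p = 0.00162). Gys2, the liver glycogen synthase, fell from 419, 468, 292 and 360.4 to 123, 148, 134 and 171 CPM (log2 fold change -1.42 with an SE of 0.25, adjusted p = 0.0147). For each the groups did not overlap, and each held in all 12 left-out fits. Ppp1r3g, another targeting subunit, had 23.2, 30.0, 4.28 and 3.82 CPM in MD and 0.459, 0.164, 0.127 and 0.519 CPM in MD+CA (-5.50, adjusted p = 0.0247) and lost its call without MD replicates 1 or 2 or MD+CA replicates 2, 3 or 4 (-5.84 to -4.96). The other 15 of 18 tested members did not pass, and the list's median was -0.02. In CD, Ppp1r3c had 43.0, 31.5, 45.2 and 26.7 CPM and Gys2 348, 264, 299.8 and 519 CPM.

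Of 30 tested genes of fructose and glucose metabolism 2 fell and 0 rose, with a median of -0.28. Txnip, an arrestin-like protein induced by glucose that limits its uptake, had 118, 131, 168 and 94.4 CPM in MD and 25.3, 21.3, 18.0 and 58.6 CPM in MD+CA (-2.05, adjusted p = 0.0320). Slc2a5, the fructose transporter GLUT5, had 2.10, 1.63, 3.005 and 2.87 CPM in MD and 0.184, 0.900, 0.253 and 1.21 CPM in MD+CA (-1.85, adjusted p = 0.0427) and was a low-level transcript. Txnip lost its call without MD replicates 1 or 2 or MD+CA replicates 2 or 3 (-2.57 to -1.87) and Slc2a5 kept it in 3 of 12 left-out fits (-2.33 to -1.54). Pck1, which encodes the cytosolic PEPCK of gluconeogenesis, had a value of -0.67 (adjusted p = 0.254). Of 23 genes of the insulin, growth hormone and IGF axis 2 fell, with a median of -0.17. Cux2, a female-biased repressor under growth hormone, had 111, 168, 68.4 and 64.1 CPM in MD and 41.2, 15.96, 17.7 and 5.19 CPM in MD+CA (-2.36, adjusted p = 0.0230). Trib1, a pseudokinase of hepatic lipid control, had a value of -1.43 (adjusted p = 0.0440). Cux2 lost its call without MD replicates 1 or 2 or MD+CA replicates 2 or 3 (-2.99 to -2.02), and Trib1 kept it in 4 of 12 (-1.90 to -1.16).

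Among genes of fatty acid oxidation 3 passed the test, all lower. Of 34 tested genes of fatty acid oxidation and ketogenesis 3 fell and 0 rose, 29 were negative, 19 were lower at an unadjusted p under 0.05, and the median was -0.60. Acot3, an acyl-CoA thioesterase under PPARalpha, had 149, 113, 344 and 374 CPM in MD and 58.0, 41.7, 7.22 and 19.6 CPM in MD+CA (log2 fold change -2.95 with an SE of 0.55, adjusted p = 0.0171). Acot4, its peroxisomal neighbour, had 209.7, 179.9, 348 and 409 CPM in MD and 125, 103.4, 50.8 and 88.0 CPM in MD+CA (log2 fold change -1.64 with an SE of 0.31, adjusted p = 0.0171). MD replicates 3 and 4 were highest and MD+CA replicate 3 lowest for both, with no overlap, and both held in all 12 left-out fits. Eci2, an isomerase for unsaturated fatty acids, had 149, 151, 135 and 156 CPM in MD and 58.1, 74.6, 79.5 and 93.2 CPM in MD+CA (-0.95, adjusted p = 0.0409) and kept its call in 3 of 12 (-1.06 to -0.84). Ppara, which drives this program, and Cpt1a, the gate of mitochondrial oxidation, had values of -0.73 and -0.49 (adjusted p = 0.125 and 0.275). Slc22a5, the carnitine transporter, and Nmrk1, a nicotinamide riboside kinase, were picked after their values were seen. Slc22a5 fell from 15.3, 24.0, 23.7 and 27.4 to 5.88, 6.79, 5.57 and 8.73 CPM (-1.74, adjusted p = 0.0171). Nmrk1 fell from 38.1, 70.8, 53.6 and 58.9 to 20.6, 17.8, 21.5 and 15.6 CPM (log2 fold change -1.55 with an SE of 0.21, adjusted p = 0.00243), and both held in all 12.

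Of 32 tested genes of lipid droplets, lipid uptake and triglyceride synthesis 1 rose and 4 fell, with 24 negative and a median of -0.32. The gene that rose was Lpl, described above. Pnpla2, the triglyceride lipase ATGL, had 55.4, 58.6, 50.3 and 69.6 CPM in MD and 27.3, 27.8, 32.5 and 35.4 CPM in MD+CA (-0.93, adjusted p = 0.0485). Its inhibitor G0s2 had 285, 233, 261 and 486 CPM in MD and 161, 98.4, 76.3 and 79.5 CPM in MD+CA (-1.61, adjusted p = 0.0497). Both, a lipase and its brake, were lower, with MD replicate 4 highest. Of the pooled Pnpla2 reads, 54.4% in MD and 64.6% in MD+CA were assigned to Pnpla2-201, a transcript annotated for nonsense-mediated decay. Mgll, which cleaves monoacylglycerols, had 227, 247, 189 and 238 CPM in MD and 107.7, 83.6, 127 and 100.2 CPM in MD+CA (-1.11, adjusted p = 0.0228). Fitm1, a droplet-forming protein, had 6.10, 7.53, 3.23 and 13.5 CPM in MD and 2.57, 0.982, 0.253 and 1.73 CPM in MD+CA (-2.42, adjusted p = 0.0409). None of the 4 overlapped between groups. Their calls held in 3, 3, 8 and 4 of 12 left-out fits in that order (-0.997 to -0.83, -1.90 to -1.32, -1.22 to -1.01 and -2.87 to -1.98), and none of the 4 held without MD replicate 1, 2 or 4 or MD+CA replicate 2. Plin2, the main droplet coat protein, had 133, 79.4, 172 and 266 CPM in MD and 142, 114, 133 and 189 CPM in MD+CA (-0.17, adjusted p = 0.795) and overlapped fully. Agpat1, an acyltransferase of glycerolipid synthesis picked after its values were seen, fell from 12.2, 20.5, 8.26 and 11.4 to 4.87, 4.50, 5.70 and 2.59 CPM (-1.57, adjusted p = 0.0179) and held in all 12. Of 25 lipogenesis genes 0 passed with edgeR, 4 were lower and 1 higher at an unadjusted p under 0.05, and the median was -0.09. Scd1, the delta-9 desaturase, had 964, 887, 3856 and 4432 CPM in MD and 1615, 2469, 1738 and 3114 CPM in MD+CA (-0.18, adjusted p = 0.851).

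Sterol and bile acid genes gave single calls, 3.85% of the cholesterol efflux list, 3.70% of the cholesterol synthesis list and 7.14% of the bile acid list, beside 2.71% of all genes. The first 2 shares are near that background. Abcg5, a subunit of the canalicular sterol exporter, fell from 81.7, 134, 63.3 and 77.4 to 37.5, 49.1, 27.2 and 48.9 CPM (-1.13, adjusted p = 0.0303), 1 of 26 genes of cholesterol efflux and lipoproteins (median -0.22). Tm7sf2, a sterol reductase, fell (-0.90, adjusted p = 0.0447), 1 of 27 genes of cholesterol synthesis (median 0.07). Of 28 bile acid genes Fgfr4, the receptor through which FGF15 restrains bile acid synthesis, rose from 15.98, 16.4, 14.3 and 15.997 to 28.4, 22.8, 33.0 and 25.9 CPM (0.81, adjusted p = 0.0306). In the same list Slco1a4, an organic anion importer, fell from 204, 246, 149.6 and 117 to 67.7, 63.2, 59.2 and 109.9 CPM (-1.26, adjusted p = 0.0228). Cyp7a1, the rate-limiting enzyme of bile acid synthesis, had 141, 167, 320.4 and 409 CPM in MD and 98.003, 167, 301 and 91.7 CPM in MD+CA (-0.66, adjusted p = 0.349) and overlapped. Abcg5, Fgfr4 and Slco1a4 kept their calls in 8 of 12 left-out fits (-1.26 to -0.86, 0.71 to 0.90 and -1.50 to -1.06) and Tm7sf2 in 2 (-1.02 to -0.75). All 4 calls were lost without MD replicate 1, MD replicate 2 or MD+CA replicate 3, and those of Abcg5, Slco1a4 and Tm7sf2 also without MD+CA replicate 2.

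Single genes of amino acid and metal handling are given next, and they stand for no group. Cbs, which commits homocysteine to cysteine synthesis, rose from 192, 136, 154 and 127 to 426, 229, 312 and 339 CPM (1.102, adjusted p = 0.0371), 1 of 24 genes of methionine and one-carbon metabolism (4.17%, near the 2.71% of all genes; median 0.21), and kept its call in 5 of 12 left-out fits (0.95 to 1.24). Gldc, the glycine decarboxylase, and Slc30a10, a manganese exporter, belonged to no list and were picked after their values were seen. Gldc rose from 56.2, 27.0, 46.6 and 43.4 to 122, 97.2, 79.8 and 159 CPM (1.40, adjusted p = 0.0198). Slc30a10 rose from 21.3, 25.9, 17.1 and 12.02 to 46.3, 51.0, 48.4 and 38.5 CPM (1.27, adjusted p = 0.0148), and both held in all 12. Slc41a2, a magnesium transporter, had 5.40, 2.65, 5.93 and 3.02 CPM in MD and 18.6, 12.9, 86.6 and 25.9 CPM in MD+CA (3.06, adjusted p = 0.0171), highest in MD+CA replicate 3. Loxl4, a lysyl oxidase, had 0.911, 0.611, 0.676 and 0.716 CPM in MD and 9.64, 2.95, 7.85 and 1.56 CPM in MD+CA (2.88, adjusted p = 0.0178). Both held in all 12 left-out fits. Glucocorticoid targets and metallothioneins had 3 calls, all lower, of 19 (median -0.55). They were Per1 and Angptl4, given above, and Gadd45a, a growth arrest gene (-1.79, adjusted p = 0.0328), which held in 7 of 12 (-2.28 to -1.56). Mt1, a metallothionein, had 155, 167, 129 and 207 CPM in MD and 86.2, 13.6, 683 and 19.02 CPM in MD+CA, with MD+CA replicate 3 highest and MD+CA replicates 2 and 4 lowest of all 8 (0.28, adjusted p = 0.865). Without MD+CA replicate 3 the value of Mt1 was -2.06 and still did not pass.

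**Figure D5:**
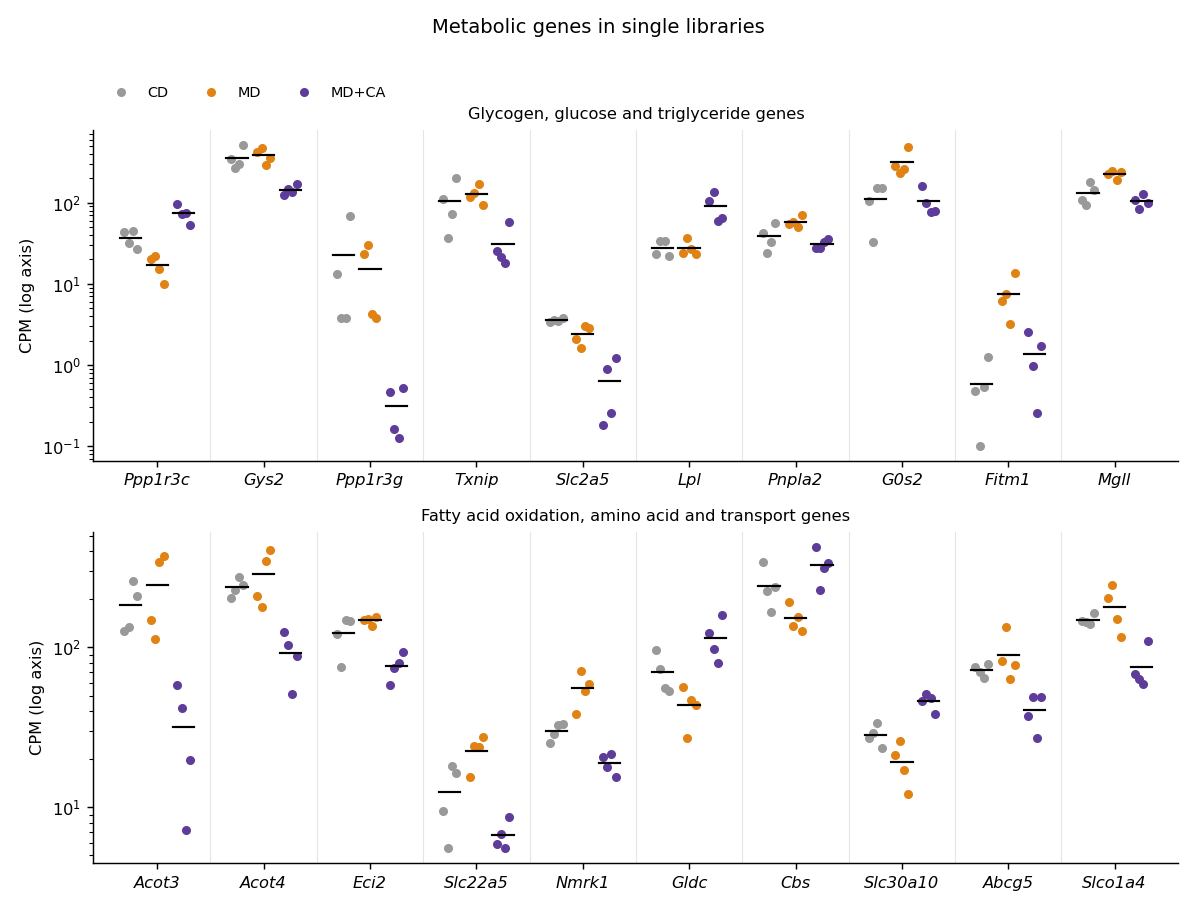
CPM on a log axis in the 4 CD (grey), 4 MD (orange) and 4 MD+CA (purple) libraries, with a black line at each group mean, for glycogen, glucose and triglyceride genes (top) and fatty acid, amino acid and transport genes (bottom). Ppp1r3c lies between 53.9 and 95.1 CPM in MD+CA, above all other libraries, and Gys2 between 123 and 171 CPM, below all others.

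Tissue lists gave few calls. Extracellular matrix and stellate cell genes had 0 of 29 past edgeR's test (median -0.21, 4 lower and 2 higher at an unadjusted p under 0.05), and Col1a1, the main fibrillar collagen, had 8.90, 6.31, 4.96 and 12.7 CPM in MD and 6.61, 4.09, 1.52 and 9.17 CPM in MD+CA (-0.60, adjusted p = 0.389). Sinusoidal endothelial cell genes had 0 of 24 (median -0.40, 21 negative, 9 lower at an unadjusted p under 0.05). Among 15 fetal and bile duct genes 1 rose, Cdh1, which encodes E-cadherin, from 18.4, 12.8, 24.7 and 17.8 to 56.7, 30.9, 52.2 and 33.8 CPM (1.23, adjusted p = 0.0228), lost without MD replicates 1, 2 or 4 or MD+CA replicate 3 (1.07 to 1.41). Among 21 hepatocyte genes the 1 call (4.76%, near the 2.71% of all genes) was Cebpb, given above, and Hnf4a had a value of 0.39 (adjusted p = 0.364). Further lists had 0 calls by edgeR and medians between -0.32 and 0.23. At an unadjusted p under 0.05, 1 was higher and 4 lower of 20 urea cycle and periportal genes, and likewise of 20 pericentral genes. These counts were 4 and 1 of 24 cell cycle genes, 3 and 2 of 25 iron and BMP genes and 6 and 2 of 26 cell death genes. Ribosomal proteins had 0 and 3 of 42, and splicing factors 4 and 2 of 34. Over all genes 23.2% reached that p in either direction.

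For some genes the reads moved between transcripts as well. Ifi47-202 took 0 to 10.6% of the reads of Ifi47 in the MD libraries and 89.4 to 100% in the MD+CA libraries, while Ifi47-204, also coding, took 89.4, 91.5, 0 and 98.2% in MD and 0 to 2.12% in MD+CA. Gdf15-202, a coding transcript, took 98.5, 87.6, 62.6 and 72.2% of the reads of Gdf15 in MD and 53.2, 48.7, 0 and 0% in MD+CA. Per3-204, which has no defined coding sequence, took 43.5% of the pooled reads of Per3 in MD and 8.63% in MD+CA, but MD+CA replicates 1 and 3, at 40.1 and 39.7%, were like MD. Reads shared by overlapping transcripts are divided by the quantification, so these shares are estimates and were not tested.

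The CD libraries, which share the model, are given beside these results. Against CD, Bmal1 had a log2 fold change of -0.57 (adjusted p = 0.431) in MD and 2.75 (adjusted p = 0.00783) in MD+CA, and Per3 of 0.67 (adjusted p = 0.339) and -2.89 (adjusted p = 0.00902). Gdf15 stood at 2.49 (adjusted p = 0.0392) in MD and 0.09 (adjusted p = 0.981) in MD+CA, and Jun at 2.88 (adjusted p = 0.0469) and 0.26 (adjusted p = 0.937). For Hspa5 the values were -0.44 (adjusted p = 0.306) and 0.72 (adjusted p = 0.208), for Cd5l -0.38 (adjusted p = 0.395) and 1.26 (adjusted p = 0.0439), and for Clpx -0.35 (adjusted p = 0.335) and 1.28 (adjusted p = 0.0128). Ppp1r3c had -1.11 (adjusted p = 0.104) in MD and 1.01 (adjusted p = 0.0932) in MD+CA, Gys2 0.11 (adjusted p = 0.832) and -1.31 (adjusted p = 0.0315), and Nr1i3 0.71 (adjusted p = 0.171) and -0.76 (adjusted p = 0.252). All 3 comparisons share libraries, so these values are not independent of those above.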

How the data were processed

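Liver RNA from 12 mice or samples (4 CD, 4 MD, 4 MD+CA) was sequenced after poly(A) selection. Per the submitters' processing notes, fastp, Salmon 1.10.3 and DESeq2 were used with mouse build GRCm39. Tool options, annotation release and strandedness are not given in the sources used. The deposited tables hold estimated counts per transcript (expected counts, with TPM, which was not used). Salmon divides reads among transcripts that share sequence, so values of near-identical genes are uncertain. Transcript values were added up within each gene, and the sums were rounded. Groups follow the sample titles. The libraries held 9089586 to 14492587 reads, and no pair was a duplicate.

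All 12 libraries were fitted with edgeR 4.0.16 (quasi-likelihood, 3 group means, filterByExpr with a minimum count of 10, TMM scaling, R 4.3.3), and the contrast MD+CA minus MD was adjusted by Benjamini-Hochberg over 13631 genes, called at an adjusted p under 0.05. Every adjusted p in the report comes from this fit unless another is named. The biological coefficient of variation was 0.308, with 9 residual degrees of freedom. Levels are CPM on TMM-scaled library sizes. Library measures were compared by two-sided exact permutation tests (SciPy 1.17.1). Intervals allowed by 0 counts use 3 reads and cover counting error only.

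Genes were described in 50 lists. Genes were named by a rule: the 12 largest increases and decreases among called protein-coding genes with no overlap and an average log2 CPM of at least 1, called members and the 3 smallest p in each list, and fixed genes. Outside the rule, and picked after their values were seen, were the genes said to be so in the text and Adipoq, Alb, Atf4, Calr, Ccr2, Cd3e, Clec4f, Clock, Cpt1a, Cyp2b10, Gm2223, Hnf4a, Hsp90b1, Ifit1, Isg15, Lcn2, Mt1, Myh4, Nr1d1, Orm2, Pck1, Pdia4, Plin2, Saa1, Scd1, Timd4 and Xbp1. The comparison, its lists and tests were chosen with earlier results of these data known. Alternatives were RLE scaling, DESeq2 1.42.0, limma 3.58.1 voom, no filter, a length offset, the 8 libraries alone, the replicate number as a block, fragment length as a covariate, no mitochondrial genes, each library left out, and, chosen after seeing the data, 2 outlying libraries left out together. Promoter windows are from RefSeq (GRCm38.p6). The procedure was tested on simulated data. Results of 2 called genes are not reported here.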

Additional observations from a re-analysis of the deposited data

Results flagged for a closer look

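Within the 4 libraries of a group, 1 library stood apart from the 3 others by Dixon's ratio (above its 95% critical value, on log2 levels for genes) in 23 of 312 groups examined (7.37%), and chance gives about 1 in 20. What set these libraries apart was not tested.

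MD+CA replicate 2 was high in interferon-induced GTPases, with 295 CPM of Gvin1 against 45.0 to 49.0 CPM in the 3 others, 36.0 CPM of Gbp2b against 5.42 to 6.83 CPM, and 150.0 CPM of Irgm2 against 54.3 to 63.9 CPM. The same library held 297 reads of the muscle myosin Myh4, where the 4 MD libraries held 0 to 2. Calls of Gbp2b and Irgm2 were lost without it, and that of Gvin1 was kept.

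MD+CA replicate 3 had 2792 CPM of the acute phase gene Orm2 against 25.4 to 46.3 CPM, and 60.5 CPM of Dnajc12 against 5.89 to 7.09 CPM. It was low in Cyp1a2 (87.0 against 204 to 233 CPM), Il15ra (12.8 against 19.4 to 20.9 CPM), Map2k6 (1.77 against 4.01 to 4.58 CPM) and Usp2 (0.886 against 2.25 to 2.70 CPM). It had 17419 genes with a read against 18798 to 18907 in the 3 others.

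MD+CA replicate 1 had a fragment length allowance of 227 bases against 270 to 276 bases, and 57.6 CPM of Ddc against 40.6 to 42.5 CPM. This allowance is the median, over long transcripts, of the difference between a transcript's length and its effective length. MD+CA replicate 4 had 445 CPM of the hepatocyte factor Hnf4a against 295 to 316 CPM, 42.4 CPM of the sterol reductase gene Tm7sf2 against 33.4 to 34.3 CPM, and 82 reads of the adipocyte hormone Adipoq, where the MD libraries held 0 to 20.

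In MD, replicate 1 was low in Csf1r (8.34 against 12.9 to 13.4 CPM) and Per2 (41.5 against 63.4 to 68.0 CPM) and high in Tgtp1 (6.52 against 3.53 to 3.67 CPM). Replicate 2 was low in Ddc (13.4 against 20.1 to 21.5 CPM) and Nqo1 (5.19 against 8.06 to 8.56 CPM) and high in Per3 (91.1 against 56.8 to 58.2 CPM). Replicate 3 was low in Blvrb (34.6 against 57.3 to 61.9 CPM) and high in Marco (31.5 against 8.04 to 9.77 CPM), and replicate 4 was low in Gadd45a (17.1 against 37.9 to 44.4 CPM).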

How the results depend on the processing

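The direction of the 111 called genes named in the text held in every alternative, and the number of calls did not. For called genes without overlap between the groups, a turn of sign was hardly possible. Against 369 calls, 145 of them higher, DESeq2 made 1195 calls (584 higher), no filter on low counts 1017 (506), a transcript length offset 183 (77), the 8 libraries fitted alone 99 (34), a fragment length covariate 142 (62), and leaving out MD replicate 2 and MD+CA replicate 3 together 67 (28). Leaving out 1 library gave 109 to 963 calls, 38 to 450 of them higher. RLE scaling (358, 148 higher), limma voom (408, 187 higher) and removal of mitochondrial genes (368, 156 higher) stayed within 1.5 times. The replicate number as a block gave 664 (280 higher). Lower genes made up 60.7% of the calls, 50.2% with no filter and 50.4 to 66.5% with 1 library left out. Same-numbered MD and MD+CA libraries correlated in their deviations by 0.256, 0.0245, 0.114 and 0.169, and 10 of 12 libraries correlated best with one of their own number. Same-numbered pairs that include a CD library correlated by -0.0792 to 0.350. The labels tie the numbers to nothing shared, and 1 of the MD and MD+CA pairs lay below 0.1. The main fit treated the samples as sharing only a number. The correlations are a hint from the data and not from the design, and a batch or pairing behind the numbers was not tested. The called genes stayed past the threshold in 1800 refits of single genes and fell short in 642. Among 41 named genes that were not called, values passed it in 45 refits and turned sign in 15. Leaving out 1 library gave -0.0315 to 0.151 for Kmo, -2.06 to 0.679 for Mt1, -0.0049 to 0.436 for Ccr2, -0.397 to 0.173 for Plin2 and -0.465 to 0.232 for Scd1. Kmo had -0.0481 and Cyp1b1 -0.0277 with limma voom, and Cyp1b1 -0.583 with the fragment length covariate. Mt1 had -1.68 with limma voom and -1.09 with the replicate block. Without both outlying libraries Kmo had -0.104, Mt1 -2.05 and Saa1 -0.0319. The cause of these changes was not tested. At 9089586 to 14492587 reads, genes of a few reads such as Cyp1a1 and Stc2 were tested only without the filter. The differences in 5 library measures kept their sign without each MD or MD+CA library in turn, where 3 against 4 libraries allow no exact p below 0.0571.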

Other observations

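Genes outside the lists, picked after their values were seen except where the naming rule took them, add other cellular roles. Dtx4, a ubiquitin ligase of the Deltex family, had 6.24, 6.41, 5.71 and 4.30 CPM in MD and 17.0, 15.8, 18.2 and 15.3 CPM in MD+CA (1.55, adjusted p = 0.00136, edgeR), with no overlap and little spread. Leo1, a subunit of the PAF1 complex that travels with RNA polymerase II, had 29.3, 29.4, 29.1 and 28.0 CPM in MD and 72.4, 75.1, 66.7 and 53.5 CPM in MD+CA (1.21, adjusted p = 0.0145). Eif1a, a translation initiation factor, had 27.7, 19.1, 23.6 and 24.3 CPM in MD and 37.2, 43.3, 48.2 and 55.2 CPM in MD+CA (0.96, adjusted p = 0.0171), and its CD libraries had 41.0, 37.6, 38.6 and 37.8 CPM. Spn, the leukocyte surface protein CD43, had 1.26, 1.63, 1.73 and 1.43 CPM in MD and 7.53, 7.20, 3.67 and 3.72 CPM in MD+CA (1.87, adjusted p = 0.0147). All 4 were higher in every MD+CA library than in any MD library and held in all 12 left-out fits.

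Among genes that fell, Lrp4, a receptor of the LDL receptor family, had 30.8, 38.3, 41.2 and 36.1 CPM in MD and 11.9, 13.2, 10.8 and 16.1 CPM in MD+CA (-1.49, adjusted p = 0.00136). Coq10b, which binds coenzyme Q in mitochondria, had 36.4, 29.1, 25.7 and 35.5 CPM in MD and 6.25, 11.3, 8.86 and 12.4 CPM in MD+CA (-1.71, adjusted p = 0.0147). Map2k6, a kinase that activates p38, had 9.88, 6.31, 13.6 and 12.2 CPM in MD and 4.50, 4.01, 1.77 and 4.58 CPM in MD+CA (-1.48, adjusted p = 0.0193). Sall1, a zinc finger factor, had 78.6, 113, 64.7 and 64.1 CPM in MD and 32.8, 39.9, 38.0 and 39.6 CPM in MD+CA (-1.09, adjusted p = 0.0178). These 4 had no overlap and held in all 12 left-out fits. The long non-coding RNA gene A930033H14Rik had 28.6, 61.5, 19.4 and 13.1 CPM in MD and 1.01, 3.19, 1.14 and 1.56 CPM in MD+CA (-4.11, adjusted p = 0.00136) and also held.

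The naming rule added 2 large increases. Dnajc12, a cochaperone of the enzymes that hydroxylate aromatic amino acids, had 4.41, 1.83, 3.38 and 2.94 CPM in MD and 6.34, 5.89, 60.5 and 7.09 CPM in MD+CA (2.63, adjusted p = 0.0454) and kept its call in 4 of 12 left-out fits (1.02 to 2.94). Fam81a had 0.631, 0.815, 0.901 and 0.955 CPM in MD and 4.23, 1.47, 9.24 and 2.59 CPM in MD+CA (2.38, adjusted p = 0.0292) and kept its call in 8 of 12 (1.72 to 2.67).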
